A study of Mus musculus with 8 samples.

Results

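The negative regulators and feedback targets of ERK signalling were examined in the retina of mice without Lpcat1, which encodes an acyltransferase that makes saturated phosphatidylcholine. The 10 genes were the dual-specificity phosphatases Dusp1, Dusp4, Dusp5 and Dusp6, the Sprouty genes Spry1, Spry2 and Spry4, the Sprouty-related genes Spred1 and Spred2, and the pseudokinase gene Trib1. Every non-control probe whose transcript accession mapped to one of these symbols was taken. The array names 20018 genes. The rule gave 11 of its 55681 probes, 2 of them for Trib1 and 1 for each other gene. Whole retinas of 2-week-old Lpcat1 WT mice (4 samples) and Lpcat1 KO mice (4 samples) were compared, each on its own 1-colour Agilent array. Both groups are given as strain C57BL/6 and neither was treated. The study describes the KO as global, and its methods give a C57BL6/N background. Those mice were crossed with C57BL6/J, and animals homozygous for the rd8 mutation of Crb1 were not used. The comparison asks how the transcripts of this feedback layer differ between the genotypes, in mice that the study uses as a model of photoreceptor degeneration.

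ERK signalling runs from receptor tyrosine kinases through Ras, Raf and MEK to the kinases ERK1 and ERK2. Its own output switches on genes that turn it off again. Dual-specificity phosphatases remove phosphates from MAP kinases, with DUSP6 acting on ERK in the cytoplasm. DUSP4 and DUSP5 are nuclear, and DUSP1 acts on p38 and JNK as well as ERK. Sprouty and Spred proteins act upstream, between the receptor and Raf. TRIB1 is a scaffold that binds the ubiquitin ligase COP1 and directs C/EBP transcription factors to degradation, and it also binds MEK1. Dusp1 is a classic immediate early gene of stress, cAMP and glucocorticoid signals, whereas Dusp6, Spry2 and Spry4 are widely used as readouts of growth factor signalling. In the retina, fibroblast growth factors and ERK are known for patterning the eye and for the response of Müller glia to injury.

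The promoters of Dusp1, Dusp5 and Spred1 are shown because Dusp1 and Spred1 were higher in every KO sample, and because Dusp1 and Dusp5 each hold a site found in no other of the 7 promoters searched. Each is the stretch of 250 bases before the RefSeq start of the gene in GRCm38.p6, read 5′ to 3′ on the strand of the gene. Dusp1 lies on the minus strand at chr17:26508473-26508722, Dusp5 on the plus strand at chr19:53528895-53529144, and Spred1 on the plus strand at chr2:117120821-117121070. Capitals mark the full cAMP response element (TGACGTCA), the CArG box of serum response factor, and the GC box (GGGCGG), each on either strand.
Dusp1: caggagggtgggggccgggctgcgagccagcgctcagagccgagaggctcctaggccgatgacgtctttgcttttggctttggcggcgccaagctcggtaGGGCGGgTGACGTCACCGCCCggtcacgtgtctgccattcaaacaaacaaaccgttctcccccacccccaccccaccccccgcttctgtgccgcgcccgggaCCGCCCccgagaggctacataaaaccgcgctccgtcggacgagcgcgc
Dusp5: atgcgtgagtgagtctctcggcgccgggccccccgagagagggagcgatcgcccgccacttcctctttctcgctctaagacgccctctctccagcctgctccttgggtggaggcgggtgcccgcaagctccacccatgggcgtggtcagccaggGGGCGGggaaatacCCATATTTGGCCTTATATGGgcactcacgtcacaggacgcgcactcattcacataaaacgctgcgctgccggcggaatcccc
Spred1: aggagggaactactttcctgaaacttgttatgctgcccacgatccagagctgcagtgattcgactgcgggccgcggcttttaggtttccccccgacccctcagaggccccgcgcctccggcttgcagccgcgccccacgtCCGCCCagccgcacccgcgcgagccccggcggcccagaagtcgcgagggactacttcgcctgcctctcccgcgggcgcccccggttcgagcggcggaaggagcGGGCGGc

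Among the 7 genes with a promoter entry, the full cAMP response element was found only in Dusp1, at bases -143 to -136. Of 32851 RefSeq promoters of the same length, 1.55% held it. The CArG box, the site of the serum response factor that ERK-activated cofactors share, was found only in Dusp5, with 2 adjoining copies at bases -82 to -73 and -72 to -63. It was present in 1.47% of promoters. GC boxes were common, in 32.7% of promoters and in 5 of the 7 genes. No match to the AP-1 site (TGANTCA, 6.75% of promoters), the ETS site (CCGGAA, 3952 of the 32851 promoters) or the TATA box (TATAAA, 12.4%) was present in any of the 7. The Dusp6 and Spry2 windows held none of the 8 motifs searched. The other motifs were the short form of the cAMP response element (TGACG, 17.8%), which the full element also contains, and an E-box (CACGTG, 6.02%), which was found in Dusp1. Such matches describe letters and not binding. Dusp4, Spry4 and Trib1 had no entry.

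**Figure D1:**
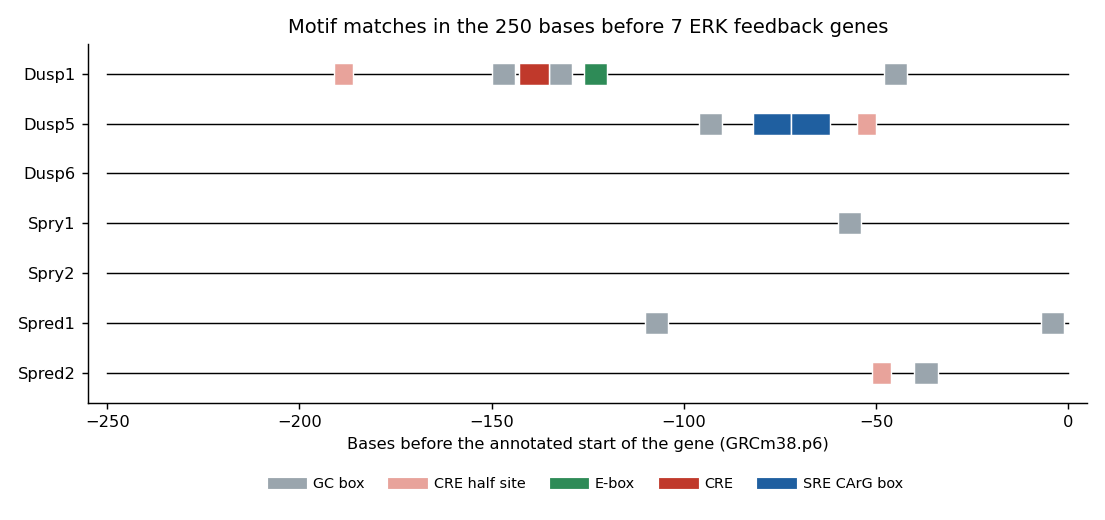
Position of motif matches in the promoters of the 7 genes that had an entry, with the distance from the transcription start in bases on the horizontal axis and 1 line per gene. The full cAMP response element stands on the Dusp1 line and the pair of adjoining CArG boxes on the Dusp5 line, while the Dusp6 and Spry2 lines are bare.

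Levels are log2 processed signal, with each array shifted so that its non-control spots have a 75th percentile of 0. They are comparable between samples for 1 probe and not between probes. Differences are KO minus WT on this log2 scale, from a limma fit of every tested probe. Calls required a Benjamini-Hochberg adjusted p under 0.05 together with a fold change over 1.2. The labels give replicate numbers but do not say that the samples are separate animals, so the p-values measure the spread between these samples, which may be technical. All 8 arrays were on 1 slide and in 1 scan, with the WT arrays in one row and the KO arrays in the other, so row and genotype cannot be told apart. The 75th percentile of the processed signal was 638 to 738 per array, and 33113 to 36373 probes were well above background. The Lpcat1 probe was lower in KO retinas (difference -0.46, SE 0.04, limma adjusted p = 0.0036), at 72.5% of the WT level. Where that probe lies relative to the deleted part is not given in the sources used here, so the probe checks the labels only in part.

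Of the 11 probes, 10 passed the filter on dim signals, covering 9 genes, and only the 2 probes of Trib1 were called. Both were lower in KO retinas, so the 20% of tested probes that were called rests on 1 of 9 genes. Across the array, 2.92% of 33972 tested probes were called, with 1.54% lower and 1.38% higher. Of 14939 tested genes, each by its brightest probe, 3.47% were called and 1.49% were called lower. No member was called higher. At an unadjusted p under 0.05, limma passed 5 of the 10, compared with 23.8% of all tested probes. Of the 10 differences 5 were positive and 5 negative, and their median was 0.02, beside -0.04 over all tested probes. All KO values lay above all WT values for 2 probes (6.05% of all tested probes) and below them for 2 (11.4%).

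**Figure D2:**
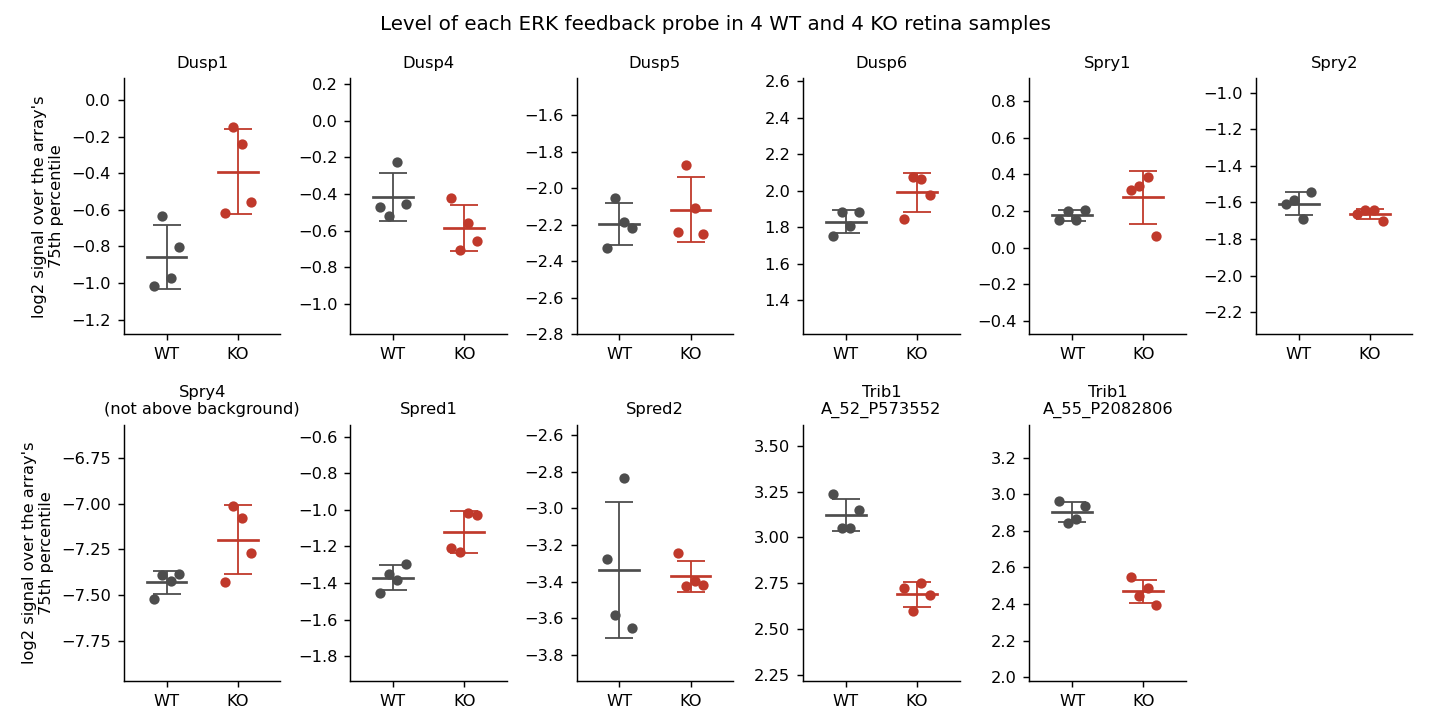
Level of each of the 11 probes in every array, as log2 signal over the array's 75th percentile, with WT and KO samples side by side. Lines are group means, error bars are 1 SD (n = 4), and each panel has its own axis, which does not start at 0. For both Trib1 probes the 4 KO points lie below the 4 WT points, for Dusp1 and Spred1 they lie above, and in the other panels the groups overlap.

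Trib1 was among the most clearly lowered transcripts of the array. Probe A_52_P573552 measured 3.24, 3.05, 3.05 and 3.15 in the 4 WT samples and 2.72, 2.59, 2.75 and 2.69 in the 4 KO samples. Probe A_55_P2082806 measured 2.96, 2.85, 2.87 and 2.94 in WT and 2.55, 2.44, 2.49 and 2.40 in KO samples. With either probe every KO sample was lower than every WT sample, and the gap between the groups exceeded the range within WT or within KO. The difference was -0.43 (SE 0.06, 95% interval -0.56 to -0.30, limma adjusted p = 0.0104) with the former probe and -0.43 (SE 0.05, 95% interval -0.54 to -0.32, adjusted p = 0.0059) with the latter. The KO level was thus 74.0% of the WT level. In a bulk tissue such as this, fewer cells that express a gene and less RNA per cell cannot be told apart. By p-value these probes ranked 177 and 85 of 33972, and 1.58% and 1.57% of tested probes had a lower difference.

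The Trib1 spots were bright, at 76.0 to 164 times their local background. Because both probes report the same gene in the same RNA extracts, they count as 1 gene. The call for each probe held after any single array was left out, with differences of -0.46 to -0.40 for the former and -0.46 to -0.41 for the latter. It was lost at a minimum fold change of 1.5, which the change did not reach. By the likeness of its centred profile over the 8 arrays, Trib1 lay closest to Dcdc2a, which encodes a doublecortin-domain protein, with a root mean square difference of 0.0389 and 0.0279 on the log2 scale for the 2 probes. Dcdc2a itself fell by 0.44 (SE 0.05). Centring keeps the genotype difference, so a gene chosen this way falls like Trib1 by construction. Next came Hmgn2, a nucleosome-binding protein gene with many near-identical copies, at 0.0514 with the former probe. With the latter it was Tmem86a, which encodes a lysoplasmalogenase, at 0.0394.

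Among the partners through which TRIB1 is known to act, Cebpb was called higher in KO retinas. Cebpb, which encodes the transcription factor C/EBPβ, measured -2.09, -2.04, -1.98 and -2.01 in WT and -1.43, -1.50, -1.49 and -1.54 in KO samples. The groups were far apart, with a difference of 0.54 (SE 0.04, limma adjusted p = 0.0021). Cebpa, which encodes C/EBPα, was well above background on all 4 KO arrays and on 0 WT arrays. It passed the filter on dim signals only through the KO arrays, so its call is no support for a change of the partners as a group. With the dim WT signal replaced by the lowest signal well above background on each array, its KO level was higher by at least 1.67-fold. This bound holds for the main processing only. The difference was 0.18 and not called with normexp background correction and quantile normalization. Cop1, the ubiquitin ligase itself, differed by -0.05 and was not called. Its Tribbles relatives were not called either, at -0.05 (SE 0.06) for Trib2 and 0.12 (SE 0.06) for Trib3. These are transcript levels, and the C/EBP proteins that TRIB1 acts on were not measured.

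Dusp1 showed the largest difference of the 4 phosphatases, in the opposite direction, but was not called. It measured -1.02, -0.63, -0.97 and -0.80 in WT and -0.62, -0.15, -0.24 and -0.56 in KO samples. All KO samples were higher than all WT samples, although the lowest KO and the highest WT sample lay close together and the spread within either group was wide. The difference was 0.47 (SE 0.13, 95% interval 0.17 to 0.76), or 1.38-fold, and its limma adjusted p of 0.0723 missed the limit. A difference above 99.0% of tested probes thus stood beside a large error. The call was gained with normexp background correction and quantile normalization (0.45, adjusted p = 0.0471) and with a trended, robust limma fit (adjusted p = 0.0409). It was not gained by leaving out any 1 array, with adjusted p between 0.0566 and 0.165.

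Of 15 tested genes that, like Dusp1, are known to be induced by stress, 8 were called higher in KO retinas and none lower. Of the 15 differences 13 were positive, and their median was 0.31. Across all 14939 tested genes, each by its brightest probe, 3.47% were called, 1.99% higher and 1.49% lower, with a median of -0.02. Atf3, a stress-activated transcription factor, measured -1.45, -1.41, -1.48 and -1.40 in WT and -0.79, -0.53, -0.77 and -0.67 in KO samples. Fos, which encodes a subunit of AP-1, measured -0.63, 0.06, -0.22 and -0.19 in WT and 1.41, 1.13, 1.07 and 1.10 in KO samples. In both genes every KO sample exceeded every WT sample, and Fos showed the larger change, 1.42 against 0.75 for Atf3 (limma adjusted p = 0.0025 for Atf3). Sgk1, a kinase induced by glucocorticoids, rose by 0.54 and the clock gene Per1 by 0.36. The other genes called higher were Jun, Junb, Ier2 and Gadd45b, by 0.31 to 0.58, with the Gadd45b call lost in 12 of 23 alternative settings and in 6 of the 8 runs without 1 array. Gadd45a (0.02), Btg2 (-0.01) and the glucocorticoid target Tsc22d3 (0.04) were not called. These last 7 genes were named after their values were seen. At a minimum fold change of 1.5, 2 of the 8 were called. The list was chosen with earlier results of these arrays known, so its count describes these samples and is not independent evidence of a direction.

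**Figure D3:**
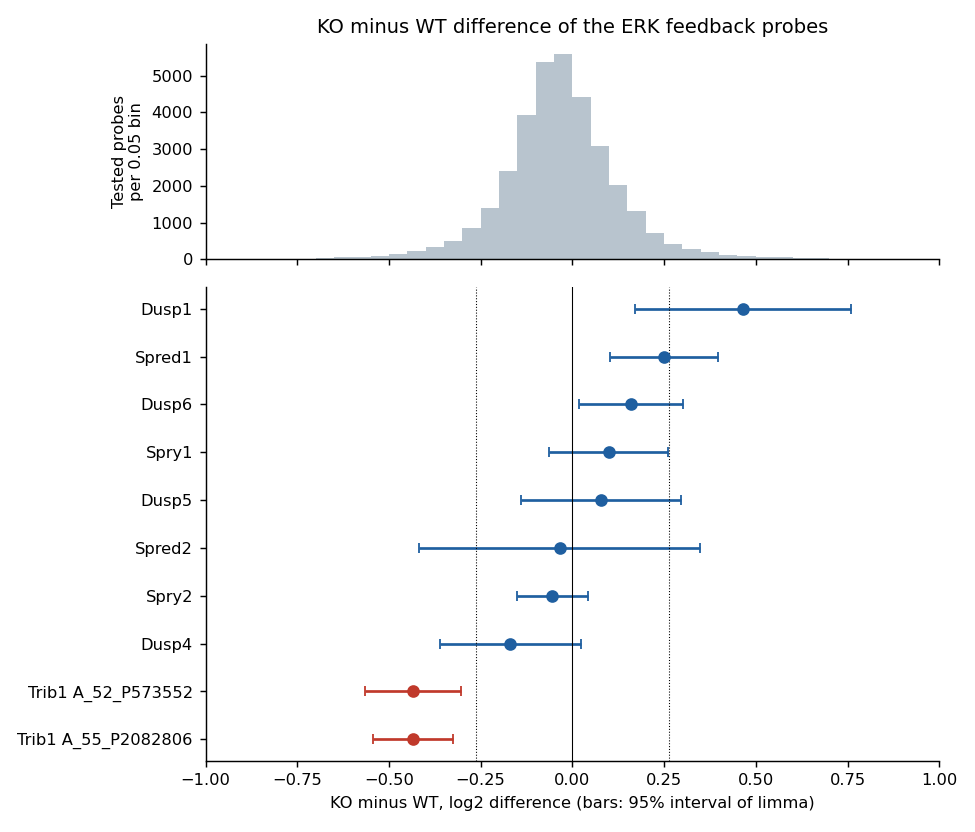
Difference between Lpcat1 KO and WT retina samples for each tested probe of the feedback genes (log2, KO minus WT), with 95% confidence intervals, called probes in red and dotted lines at the fold limit of 1.2. The histogram above counts all tested probes by their difference. The intervals of both Trib1 probes lie below 0, those of Dusp1, Spred1 and Dusp6 lie above 0, and the rest cross 0.

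The other dual-specificity phosphatases of the group showed smaller differences than Dusp1, and none was called. Dusp6, the cytoplasmic ERK phosphatase, measured 1.75, 1.88, 1.81 and 1.88 in WT and 1.85, 2.08, 2.07 and 1.97 in KO samples. One KO sample lay inside the WT range, and the difference of 0.16 (SE 0.06, 95% interval 0.02 to 0.30, limma adjusted p = 0.166) was not called. Dusp4, a nuclear phosphatase, measured -0.47, -0.52, -0.23 and -0.45 in WT and -0.42, -0.71, -0.56 and -0.66 in KO samples. Most KO samples were lower, but the highest of them exceeded 3 WT samples. Its difference was -0.17 (SE 0.08, 95% interval -0.36 to 0.02, adjusted p = 0.266), and -0.11 without WT replicate 3. Dusp5, whose promoter held the pair of CArG boxes, measured -2.33, -2.05, -2.18 and -2.22 in WT and -2.24, -1.87, -2.11 and -2.25 in KO samples. The groups overlapped over most of their range and the difference was 0.08 (SE 0.09, 95% interval -0.14 to 0.30, adjusted p = 0.656). It became -0.0028 without KO replicate 2, the highest of the 8.

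Spred1, which holds back Raf activation, was higher in all KO samples but was not called. It measured -1.46, -1.35, -1.38 and -1.30 in WT and -1.21, -1.23, -1.02 and -1.03 in KO samples. The groups did not overlap, and the difference was 0.25 (SE 0.06, 95% interval 0.10 to 0.40, limma adjusted p = 0.0620), or 1.19-fold, so that it missed both limits. Its adjusted p also fell to 0.0326 with a trended, robust limma fit and passed the limit with array weights, but its fold change stayed under 1.2 in both. It was called where only probes detected throughout entered the 75th percentile (0.27, adjusted p = 0.0466). Spred2, a close relative, measured -3.28, -3.58, -2.83 and -3.65 in WT and -3.25, -3.42, -3.40 and -3.42 in KO samples. The spread within WT spanned all KO values, so a difference of -0.03 (SE 0.17, 95% interval -0.42 to 0.35) left its direction unsettled. Its sign turned without WT replicate 3, the highest of the 8, to 0.13, and also with cyclic loess and with normexp correction. The Spred2 spot was dim, at 3.65 to 5.37 times its local background.

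No Sprouty gene was called. Spry1, which restrains signalling between receptors and Raf, measured 0.15, 0.20, 0.15 and 0.21 in WT and 0.31, 0.34, 0.39 and 0.06 in KO samples. The other three KO samples were above all WT samples, while KO replicate 4 was the lowest of the 8. The difference was 0.10 (SE 0.07, 95% interval -0.06 to 0.26, limma adjusted p = 0.435). It was 0.17 without KO replicate 4 and 0.06 without KO replicate 3, called in neither case. Spry2 measured -1.61, -1.59, -1.69 and -1.54 in WT and -1.66, -1.64, -1.64 and -1.70 in KO samples. Its groups overlapped, and its interval of -0.15 to 0.04 around -0.05 (SE 0.04) bounds the change of the transcript. The Spry4 probe was not well above background on any array and was not tested, with processed signals between 3.64 and 4.27 in WT samples and between 3.79 and 5.71 in KO samples.

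No gene of the cascade that these proteins restrain was called. Of 23 tested genes from Ras to ERK and its RSK kinases, 13 were higher and 10 lower, and the median difference was 0.01. The smallest p-value belonged to Sos2, a Ras activator, at 0.15 (SE 0.05, limma adjusted p = 0.0962). Of 17 receptor tyrosine kinases, Flt1, a VEGF receptor, was called, measuring 2.17, 2.24, 2.05 and 2.14 in WT and 2.38, 2.51, 2.47 and 2.46 in KO samples (difference 0.31, adjusted p = 0.0214). Of 19 tested growth factor ligands Fgf2 was called, a survival factor for photoreceptors, at 0.34 (adjusted p = 0.0403). Both genes were higher in each KO sample than in any WT sample, although the call of Fgf2 was lost in 14 and that of Flt1 in 9 of 23 alternative settings. None of 16 other inhibitors of the pathway was called, and Lrig1, which promotes receptor degradation, had the smallest p-value among them (0.17, adjusted p = 0.0906). The list held the Sprouty and Spred relatives Spry3 (0.26) and Spred3 (0.04) and the FGF receptor antagonist Il17rd (0.04). Among 11 other MAP kinase phosphatases Ptpn5, the striatum-enriched tyrosine phosphatase, was lower by -0.29 (adjusted p = 0.0407), a call lost in 18 of 23 alternative settings.

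Of 9 tested genes that are commonly read as the output of ERK, 1 was called higher. Of the 9 differences 8 were positive, with a median of 0.18 beside -0.02 over all tested genes. Etv5, an ETS factor induced by FGF signalling, measured 2.74, 2.85, 2.70 and 2.71 in WT and 3.09, 3.08, 3.00 and 3.08 in KO samples. The groups were clearly apart, with a difference of 0.31 (SE 0.05, limma adjusted p = 0.0153). Its call was lost in 4 of 23 alternative settings, among them without KO replicate 2, at a difference of 0.31 and an adjusted p of 0.0511. Named after their values were seen, the ETS factor Etv1 (0.21, adjusted p = 0.0346) and the ephrin receptor Epha4 (0.21, adjusted p = 0.0437) passed the p-value limit but not the fold limit. The rest of the list, with none called, was Etv4 (0.25), Phlda1 (0.18), Plaur (0.07), Ccnd1 (0.05), Epha2 (0.03) and Myc (-0.26). Of 13 transcription factors of the pathway, the repressor Etv6 was called, at 0.27 (adjusted p = 0.0346), a call lost in 12 of 23 alternative settings and in 7 of the 8 runs without 1 array. In the parallel stress cascades of p38 and JNK, the 18 tested genes had a median of -0.04, and the 1 called was Mapkapk3, a kinase downstream of p38. Mapkapk3 measured -2.79, -2.80, -3.02 and -2.50 in WT and -1.83, -2.01, -1.83 and -1.65 in KO samples. Every KO sample exceeded every WT sample, and the difference was 0.95 (SE 0.12, adjusted p = 0.0086).

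**Figure D4:**
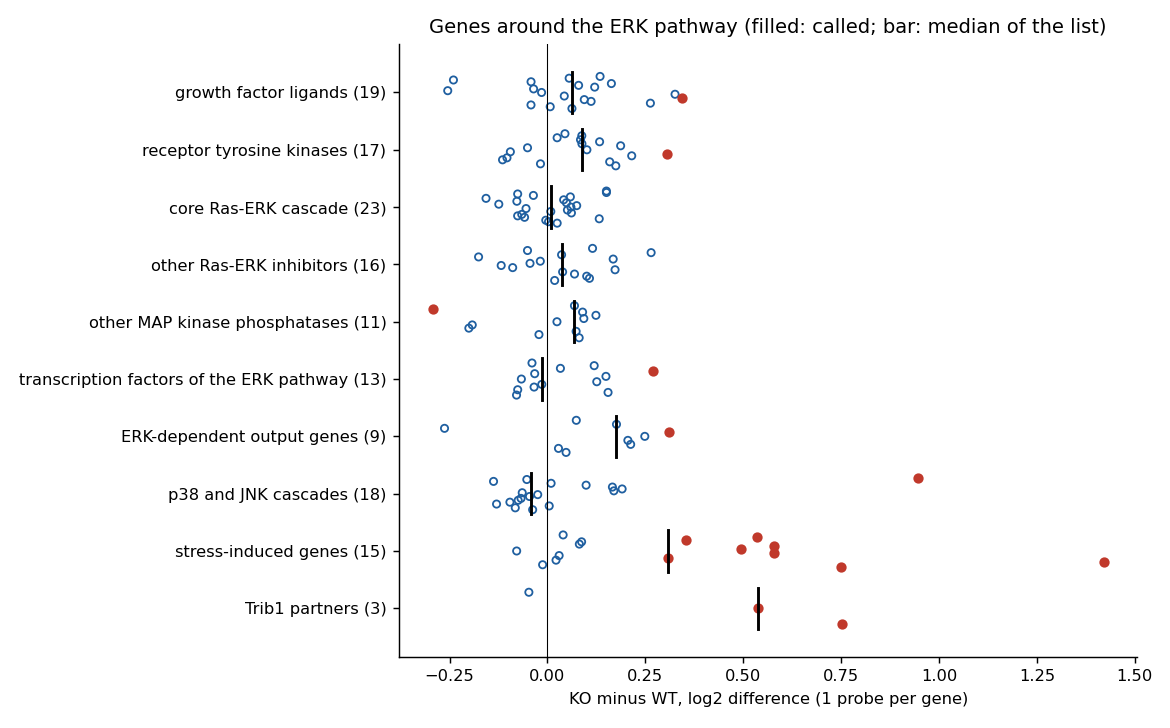
Differences between Lpcat1 KO and WT retina samples (log2, KO minus WT) for the tested genes of the 10 lists around the ERK pathway, 1 point per gene, with called genes filled and a bar at the median of each list. Called genes gather in the list of stress-induced genes, where the median is 0.31, while the core cascade is centred near 0 with none called.

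Over all 10 lists, 15 of 144 tested genes were called higher and 1 lower, or 11.1%, beside 3.47% of all tested genes (1.99% higher and 1.49% lower). Of the 15, 8 belonged to the stress-induced list, and 1, Cebpa, passed the filter only through the KO arrays. The counts of lists described here take each gene by its brightest probe, and the lists were chosen with earlier results known.

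Markers of rods, cones, Müller glia and microglia held calls alongside these genes. The markers listed for rods, cones, bipolar, amacrine, horizontal and ganglion cells and Müller glia were well above background on all 8 arrays, which fits the label of whole retina. So were 9 of 10 markers of the pigment epithelium, 6 of 10 of the lens and both blood markers on the array. All 9 rod markers reported here were lower in KO retinas and 2 were called (Sag and Nr2e3, at -0.36 and -0.50), with a median of -0.21. Their summed level, in units of each array's 75th percentile, was 1850 to 1928 in WT and 1515 to 1682 in KO samples. Of 9 Müller glia markers 8 were higher and 3 were called, with summed levels between 295 and 315 in WT samples and between 354 and 364 in KO samples. All 10 markers of microglia and macrophages were higher and 5 were called, with summed levels from 28.7 to 36.6 in WT and from 32.1 to 38.03 in KO samples. Their median difference was 0.35, and the sum is led by the bright Itgam probe, which differed by 0.02. All 7 cone markers were higher and 2 were called. Of the inner neurons, 8 of 10 amacrine and horizontal, 6 of 8 ganglion and 5 of 7 bipolar cell markers were higher, with none called. The 3 astrocyte markers were higher with none called, and of 9 tested markers of endothelium and pericytes 2 were higher and 7 lower, with none called. No marker of the pigment epithelium, lens or blood was called, and the lens genes Crybb2, Crygb, Lim2 and Mip and the pigment epithelium gene Best1 did not pass the filter on dim signals. The part of these shifts in the differences of Trib1, Dusp1, Spred1 and Etv5 was not tested.

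**Figure D5:**
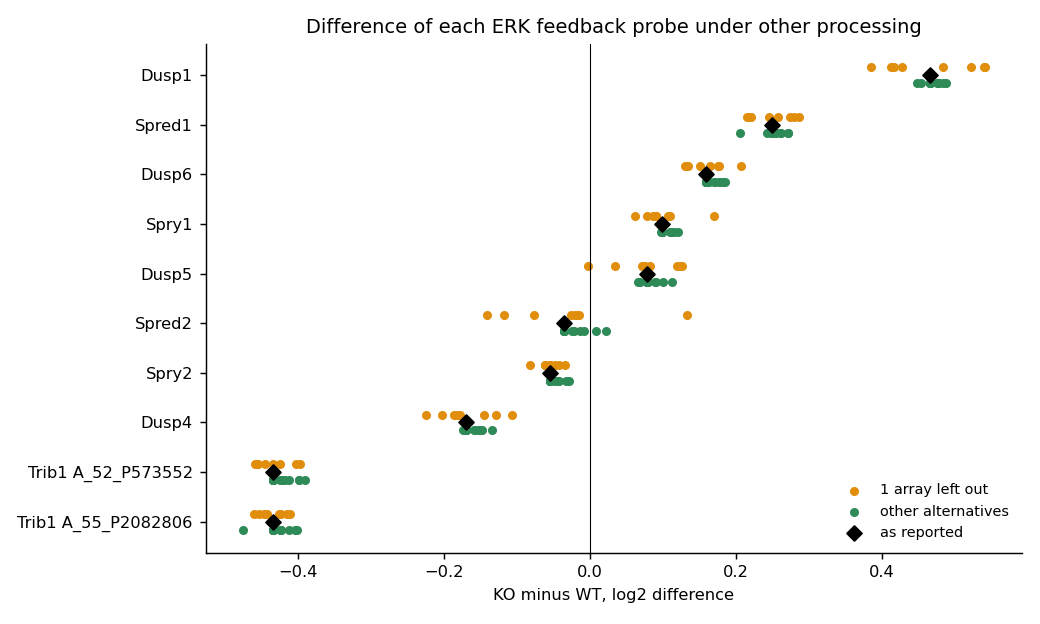
Difference of each tested feedback probe (log2, KO minus WT) as reported (diamond), with 1 array left out (upper points) and under the other alternatives (lower points). The Trib1 points lie between -0.48 and -0.39, Dusp1 and Spred1 stay above 0, and the points of Spred2 fall on both sides of 0.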

How the data were processed

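Total RNA of whole retina was hybridised in 1 colour (Cy3) to Agilent SurePrint G3 mouse arrays, and scans were quantified by the authors in Agilent's Feature Extraction software (10.7.1.1 in the submitters' processing notes). Spot intensity in the deposited scanner files is linear and background-subtracted, per the file headers. The deposited table of the series holds log2 values after a 75th percentile shift by the authors in GeneSpring, and served as an alternative. Every per-sample column was used or mapped, with 0 left out.

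Here, log2 processed signals were set to each array's 75th percentile among non-control spots. Outlier spots (86 to 147 per array) were dropped and repeated spots averaged. A probe was tested if well above background on all 4 arrays of either genotype (33972 of 55681). limma 3.58.1 in R 4.3.3 compared KO with WT with no covariate, and p-values were adjusted by Benjamini-Hochberg across every tested probe. The limits, a fold change over 1.2 and an adjusted p under 0.05, follow a legend of the study. A two-sided exact permutation test over 70 regroupings reached its smallest possible p of 0.0286 for the 4 probes whose genotypes did not overlap. The lack of overlap fixes this value, and 17.5% of all tested probes did not overlap. On simulated arrays of 33950 probes for this comparison, 19 of 50 changes of 0.3, 35 of 50 of 0.5, 44 of 50 of 1 and 48 of 50 of 1.5 (log2) were called, with 9 of the unchanged probes. The number of arrays limits the precision.

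Probes were named from their transcript accession through RefSeq, which gave a symbol to 26413 of them (47.4%). Lists count each gene by its brightest probe. All members and Lpcat1 were named. From each list the called genes were named, up to the 4 with the smallest adjusted p, or the gene with the smallest p where none was called. For Trib1 the 2 genes with the closest centred profile over the 8 arrays were named. One gene of the marker lists is not reported here. The members and all lists were chosen with earlier results of these data known. Promoters are RefSeq sequences (GRCm38.p6), with entries for 7 of the 10 genes. Alternatives covered scaling, background correction, filters, tests, the replicate number as a block, the fold limit, the probe that stands for a gene, and dropping each array in turn.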

Additional observations from a re-analysis of the deposited data

Results flagged for a closer look

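In 4 of 56 groups of 4 samples (28 probes, covering the tested feedback genes and the named genes of the lists), 1 sample stood apart from the other 3 by more than Dixon's 95% critical value. Chance alone marks about 1 in 20 such groups. Spred2 measured -3.25 in KO replicate 1, above the other KO samples at -3.42 to -3.40. Etv5 measured 3.00 in KO replicate 3, below the other KO samples at 3.08 to 3.09. Fgf2 measured -4.07 in WT replicate 3, above the other WT samples at -4.32 to -4.30. Ier2 measured -2.00 in WT replicate 1, below the other WT samples at -1.83 to -1.80.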

How the results depend on the processing

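Of 230 values of the feedback probes under 23 alternatives, 221 kept their direction and their call, which needs both limits to be passed. Trib1 kept its calls except at a minimum fold change of 1.5, where 0 feedback probes were called lower. With the 75th percentile of probes detected throughout (Spred1), with normexp correction (Dusp1) and with a trended, robust fit (Dusp1), 1 probe was called higher in place of 0. The sign of Spred2 turned with cyclic loess (0.0222) and normexp correction (0.0091). Leaving out single arrays gave -0.14 to 0.13 for Spred2, turned by WT replicate 3, and -0.0028 to 0.13 for Dusp5, turned by KO replicate 2. The cause was not tested.

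Over the 10 lists, genes called higher numbered 15, but 9 without a filter on dim probes, 4 at a fold change of 1.5 and 10 to 15 with 1 array left out. Genes called lower numbered 1 (Ptpn5), but 0 with quantile, median, detected-probe, cyclic loess or normexp scaling, the authors' table, no filter, the methods' t-test (Benjamini-Hochberg adjusted) or a fold change of 1.5. They numbered 3 with no minimum fold, and 0 to 1 with 1 array left out, with 0 unless that was WT replicate 1. Ptpn5 itself lost its call in all 8 runs with 1 array left out. Calls were lost in 14 of 23 settings for Fgf2, 12 each for Etv6 and Gadd45b, 9 for Flt1 and 4 for Etv5. The Cebpa call was also lost with normexp correction (0.18).

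With the replicate number as a block, 0 feedback probes were called higher and 2 lower, and 5 genes of the lists higher and 0 lower, with 395 calls in place of 992 over all probes. Of the 8 stress-induced calls 3 held (Atf3, Fos and Per1), and those of Sgk1, Jun, Junb, Ier2 and Gadd45b were lost, as were those of Cebpa and Etv5. Deviations of same-numbered arrays correlated at 0.25, 0.07, 0.04 and 0.11, and 3 of the 4 WT arrays correlated best with their own number, a hint from the data and not from the labels. As 2 of the 4 correlations were under 0.1 and no label ties a number to an animal or litter, the samples were not treated as paired.

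Calls over all probes numbered 246 without a filter, 138 at a fold change of 1.5, 1869 with no minimum fold and 391 (without WT replicate 2) to 1182 (without KO replicate 1) with 1 array left out. The split of higher and lower calls was 470 and 522 as reported, 629 and 341 with cyclic loess, 583 and 367 with detected-probe scaling, 518 and 389 with quantile normalization and 439 and 274 with normexp correction. Dim spots, such as those of Spred2 and Spry4, limit what these arrays show for them.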

Other observations

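Within each genotype, replicate 2 stood high for some phosphatases and low for another. Replicate 2 had the highest Dusp1, Dusp5 and Dusp6 level among the WT samples (-0.63, -2.05 and 1.88) and among the KO samples (-0.15, -1.87 and 2.08). The Dusp6 margin was small, with WT replicate 4 also at 1.88 and KO replicate 3 at 2.07. For Dusp4, replicate 2 was the lowest WT sample, at -0.52, and its KO value was the lowest of all 8, at -0.71. KO replicate 2 also had the fewest probes well above background, 33113, and the highest 75th percentile of processed signal, 738.

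Of the MAP kinase phosphatases outside the feedback group, Dusp22 (-0.19, limma adjusted p = 0.0481) passed the p-value limit but not the fold limit, and Dusp2, a nuclear phosphatase of immune cells, was not called at -0.20 (adjusted p = 0.114). In both, every KO sample was lower than every WT sample, which held for 11.4% of all tested probes. Dusp7, Dusp8, Dusp10 and Dusp16 differed by 0.12, 0.09, 0.08 and 0.07, and none was called. These values are of the brightest probe. A second tested probe gave -0.05 for Dusp22 and 0.20 for Dusp16, called in neither case. These genes were named after their values were seen.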
